A study of Homo sapiens with 4 samples.

Results

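The 8 transcription factors GATA6, HNF4A, FOXA1, FOXA2, PDX1, SOX9, KLF5 and TP63 were followed by gene name through a table of 58174 genes measured in 2 pancreatic cancer cell lines. Each of the 8 names was found once. The lines, SW1990 and PANC-1, are established human lines and were at passage 14-16. Each was sequenced unirradiated (Ctrl) and after 10 Gy of X-rays (Rad), as a single library, which gives 4 libraries. SW1990 cells were grown in 1640 medium and PANC-1 cells in DMEM, both with 10% FBS, so line and medium cannot be told apart. The counts assigned to genes were 17851815 in SW1990 Ctrl, 18305682 in SW1990 Rad, 23323266 in PANC-1 Ctrl and 20026595 in PANC-1 Rad. The time between radiation and RNA extraction is not given in the sources used here. The labels call the libraries rRNA depleted, whereas the kit they name is an mRNA kit.

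Lineage transcription factors bind the regulatory DNA of the genes that give a tissue its identity. In the pancreas, FOXA1 and FOXA2 are pioneer factors that open chromatin in the endoderm, PDX1 and SOX9 mark and maintain pancreatic progenitors, and GATA6 and HNF4A act in endoderm differentiation and are known for high expression in classical pancreatic tumours. KLF5 is an epithelial factor of the gut and pancreatic duct, and TP63 encodes the p63 factor of squamous epithelium, known from squamous, or basal-like, pancreatic tumours.

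SW1990 and PANC-1 cells expressed different sets of these factors. With a level of 1 FPKM (fragments scaled to transcript length and to the mapped fragments of the library, which allows levels of different genes to be compared) as the limit, 6 of the 8 passed in both SW1990 libraries (GATA6, HNF4A, FOXA1, PDX1, SOX9 and KLF5) and 3 in both PANC-1 libraries (GATA6, FOXA2 and SOX9). In SW1990 Ctrl the levels ran in the order SOX9, KLF5, FOXA1, GATA6, HNF4A, PDX1, FOXA2 and TP63, and in PANC-1 Ctrl in the order SOX9, FOXA2, GATA6, KLF5, FOXA1 and TP63, with HNF4A and PDX1 listed at 0. The order in SW1990 Rad differed at 1 place, with KLF5 above SOX9, and that in PANC-1 Rad at the lowest place, with PDX1 at 2 counts and TP63 at 0. With 1 library per group, no spread between replicates is known within a group, so neighbours in these orders were not compared by a test.

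**Figure D1:**
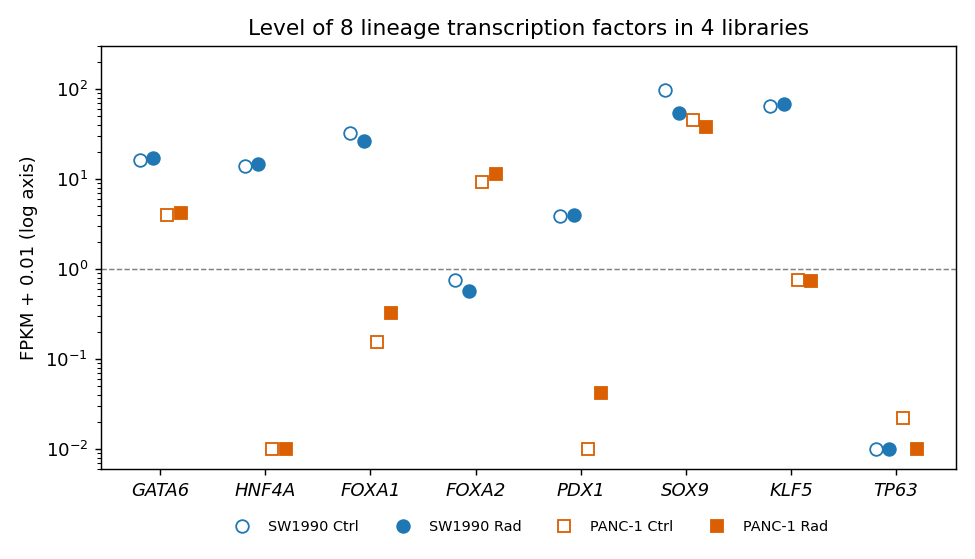
Level of each of the 8 transcription factors in the 4 libraries, as FPKM + 0.01 on a log axis; circles are SW1990, squares PANC-1, open symbols unirradiated and filled symbols irradiated, and the dashed line is 1 FPKM. SOX9 lies between 37.8 and 97.4 FPKM in every library, FOXA2 is higher in PANC-1, and HNF4A is listed at 0 in PANC-1.

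The difference between the lines was tested over all 4 libraries with edgeR's quasi-likelihood test, with treatment as a covariate and 1 residual degree of freedom. Of 18180 genes tested, 8124 (44.7%) differed at a Benjamini-Hochberg adjusted p under 0.05, 3965 (21.8%) higher and 4159 (22.9%) lower in SW1990, and 53.4% had an unadjusted p under 0.05. The low-count filter kept 7 of the 8 factors and removed TP63. HNF4A, PDX1 and FOXA1 passed it through the SW1990 libraries, so the 7 do not stand for all 8. Of those 7, GATA6, HNF4A, FOXA1, PDX1, SOX9 and KLF5 were called higher in SW1990 and FOXA2 lower, beside a background in which close to every other gene is called. The 2 libraries of a line differ in treatment and are not labelled as separate cultures of 1 condition. These p-values thus set the line difference against what the line and treatment terms leave unexplained in these libraries. A spread between cultures of 1 condition was not measured. Ratios are given below for each treatment with exact Clopper-Pearson 95% intervals of the counts, which cover counting error only.

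GATA6, a zinc-finger factor of endoderm that binds GATA sequences, lies at chr18:22169443-22202528 (GRCh38, plus strand). It had 1265 counts (16.1 FPKM) in SW1990 Ctrl, 1331 (17.0 FPKM) in SW1990 Rad, 404 (3.93 FPKM) in PANC-1 Ctrl and 357 (4.16 FPKM) in PANC-1 Rad. Both SW1990 libraries were above both PANC-1 libraries, and GATA6 was still next to SOX9 and FOXA2 in the order of levels in PANC-1. Its level stood at percentiles 66.4 and 68.6 of the genes with at least 1 FPKM in SW1990 and at percentiles 28.6 and 30.2 in PANC-1. SW1990 had 3.49-fold more GATA6 RNA than PANC-1 without radiation (3.12 to 3.92) and 3.86-fold more with radiation (3.43 to 4.35). Over the 4 libraries the log2 difference was 1.88 ± 0.17 (SE; adjusted p = 0.00118, edgeR's quasi-likelihood test).

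RefSeq promoter windows (GRCh38.p14) were matched by symbol for 5 of the 8 factors, GATA6, HNF4A, FOXA1, KLF5 and TP63, in 7 windows of 250 bases that end at the base before the start RefSeq gives. This start can differ from that of the deposited table, and the windows of GATA6 (in part), FOXA1, the downstream start of HNF4A and the downstream start of KLF5 lie within the spans the table gives for these genes. The windows of GATA6 and HNF4A are shown, since both are factors of classical tumours that were higher in SW1990 and since HNF4A has more than 1 start. All 7 were searched on both strands for AGATAA, which GATA factors bind, TGTTTAC, which forkhead factors such as FOXA1 and FOXA2 bind, and CAAAGTCC, part of a site for HNF4 factors. The general promoter motifs CCAAT, bound by NF-Y, and the TATA box, searched as TATAAA, were added. Capitals mark each match. The windows are chr18:22169339-22169588 for GATA6, chr20:44355449-44355698 for the upstream start of HNF4A and chr20:44400989-44401238 for its downstream start, all on the plus strand.
GATA6: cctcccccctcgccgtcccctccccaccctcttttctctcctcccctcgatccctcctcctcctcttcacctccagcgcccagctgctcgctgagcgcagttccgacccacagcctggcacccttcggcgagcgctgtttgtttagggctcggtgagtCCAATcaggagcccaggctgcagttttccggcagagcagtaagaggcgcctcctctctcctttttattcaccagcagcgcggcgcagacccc
HNF4A upstream: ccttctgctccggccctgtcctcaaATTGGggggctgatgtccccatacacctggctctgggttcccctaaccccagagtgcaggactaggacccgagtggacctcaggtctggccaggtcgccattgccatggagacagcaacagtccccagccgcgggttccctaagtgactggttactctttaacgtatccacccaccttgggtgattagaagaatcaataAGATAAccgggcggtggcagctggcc
HNF4A downstream: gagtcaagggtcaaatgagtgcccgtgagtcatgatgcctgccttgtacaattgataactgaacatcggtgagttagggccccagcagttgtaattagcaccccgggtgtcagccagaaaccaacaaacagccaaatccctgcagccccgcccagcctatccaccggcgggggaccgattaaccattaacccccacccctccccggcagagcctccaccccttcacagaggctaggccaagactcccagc
The GATA6 window holds CCAAT at bases 159 to 163, a motif found in 32.0% of 35116 promoter windows of this length. The upstream HNF4A window holds AGATAA at bases 225 to 230, found in 9.17% of windows, and CCAAT on the opposite strand at bases 26 to 30. The downstream HNF4A window and the FOXA1 window hold none of the motifs. TGTTTAC, found in 2.98% of all windows, and CAAAGTCC, found in 1.02%, are in none of the 7. The GATA6 window has 16 CG dinucleotides and each HNF4A window has 8, beside a median of 11 over all windows (quartiles 3 and 23). A match of letters is a description of the sequence, and binding was not measured.

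HNF4A, a nuclear receptor that drives gut and liver gene programmes, lies at chr20:44355700-44434596 (plus strand) with 6 annotated start positions among 9 transcripts. It had 498 counts (14.1 FPKM) in SW1990 Ctrl, 501 (14.7 FPKM) in SW1990 Rad and 0 counts in PANC-1 Ctrl and in PANC-1 Rad. The lines did not overlap, and the SW1990 values differ little with treatment. With 3 counts as the limit that a count of 0 allows in a library (0.129 CPM in PANC-1 Ctrl and 0.150 in PANC-1 Rad), SW1990 had at least 185-fold more HNF4A RNA without radiation and at least 173-fold more with radiation. The adjusted p over the 4 libraries was 0.000626 (edgeR's quasi-likelihood test). HNF4A passed the count filter in the SW1990 libraries alone and so had to differ, and this p-value adds no support for the difference. Gene counts do not separate transcripts of the upstream and downstream starts.

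FOXA1 and FOXA2 are closely related forkhead factors, and their order was opposite in the lines. FOXA1, at chr14:37589984-37596059 on the minus strand, had 1780 counts (32.0 FPKM) in SW1990 Ctrl, 1485 (26.6 FPKM) in SW1990 Rad, 12 (0.143 FPKM) in PANC-1 Ctrl and 22 (0.316 FPKM) in PANC-1 Rad. It was abundant in both SW1990 libraries and under 1 FPKM in both PANC-1 libraries, a difference of 165.5-fold without radiation (94.5 to 320.9) and of 69.8-fold with radiation (45.9 to 112). The log2 difference over the 4 libraries was 6.68 ± 0.35 (SE; adjusted p = 0.00034, edgeR's quasi-likelihood test). FOXA1 passed the count filter in 2 SW1990 libraries and 1 PANC-1 library. It was thus kept through SW1990, and this p-value adds no support for the difference.

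FOXA2, at chr20:22581005-22585455 on the minus strand, had 40 counts (0.750 FPKM) in SW1990 Ctrl, 31 (0.563 FPKM) in SW1990 Rad, 644 (9.19 FPKM) in PANC-1 Ctrl and 682 (11.3 FPKM) in PANC-1 Rad. It was the only one of the 7 tested factors that was lower in SW1990, 14.4-fold without radiation (10.5 to 20.4) and 21.3-fold with radiation (14.9 to 31.6). The log2 difference was -4.12 ± 0.28 (SE; adjusted p = 0.000561, edgeR's quasi-likelihood test). Within SW1990 the FPKM of FOXA1 was far above that of FOXA2, and within PANC-1 the reverse was seen.

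PDX1, the homeobox factor of the early pancreas and of beta cells, lies at chr13:27920020-27926231 (plus strand). It had 214 counts (3.88 FPKM) in SW1990 Ctrl, 221 (3.94 FPKM) in SW1990 Rad, 0 in PANC-1 Ctrl and 2 (0.0320 FPKM) in PANC-1 Rad. The lines did not overlap, although in SW1990 PDX1 was only at percentiles 28.7 and 29.1 of the genes with at least 1 FPKM. SW1990 had at least 79.6-fold more without radiation, and with radiation, against 2 counts, the ratio was 114-fold (31.3 to 949). The adjusted p was 0.00134 (edgeR's quasi-likelihood test). PDX1 too passed the count filter in the SW1990 libraries alone and so had to differ, and its p-value adds no support for the difference.

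SOX9, the HMG-box factor of pancreatic progenitors and ducts, was the most abundant of the 8 in 3 of the 4 libraries. At chr17:72121020-72126420 (plus strand), it had 8425 counts (97.4 FPKM) in SW1990 Ctrl, 4760 (54.0 FPKM) in SW1990 Rad, 5155 (45.3 FPKM) in PANC-1 Ctrl and 3715 (37.8 FPKM) in PANC-1 Rad. Its percentiles among genes with at least 1 FPKM were 96.3 and 92.3 in SW1990 and 89.6 and 87.1 in PANC-1, so that it was a high-level gene in both lines. The ratio of SW1990 to PANC-1 was 1.82-fold without radiation (1.76 to 1.89) and 1.33-fold with radiation (1.27 to 1.38). Over the 4 libraries the log2 difference was 0.64 ± 0.17 (SE; adjusted p = 0.0318, edgeR's quasi-likelihood test), and this call was lost when the treatment term was dropped (edgeR's adjusted p = 0.101). Fits of 3 libraries leave no residual degree of freedom with that term. Without it, the adjusted p was 0.486, 0.0153, 0.193 and 0.347 when SW1990 Ctrl, SW1990 Rad, PANC-1 Ctrl and PANC-1 Rad were left out (edgeR).

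KLF5, a zinc-finger factor of proliferating epithelium, was the second most abundant of the 8 in SW1990 Ctrl. At chr13:73054976-73077542 (plus strand), it had 4147 counts (64.3 FPKM) in SW1990 Ctrl, 4519 (68.8 FPKM) in SW1990 Rad, 77 (0.742 FPKM) in PANC-1 Ctrl and 66 (0.730 FPKM) in PANC-1 Rad. Both PANC-1 libraries were under 1 FPKM. SW1990 had 60.1-fold more KLF5 RNA without radiation and 70.8-fold more with radiation, with a log2 difference of 6.02 ± 0.19 (SE; adjusted p = 0.000242, edgeR's quasi-likelihood test).

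TP63, at chr3:189631416-189897279 (plus strand, 14 transcripts with 8 start positions), had 0 counts in SW1990 Ctrl, SW1990 Rad and PANC-1 Rad and 2 counts (0.0119 FPKM) in PANC-1 Ctrl. At this depth TP63 RNA was not detectable above 3 counts in a library in either line, and no ratio is given.

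**Figure D2:**
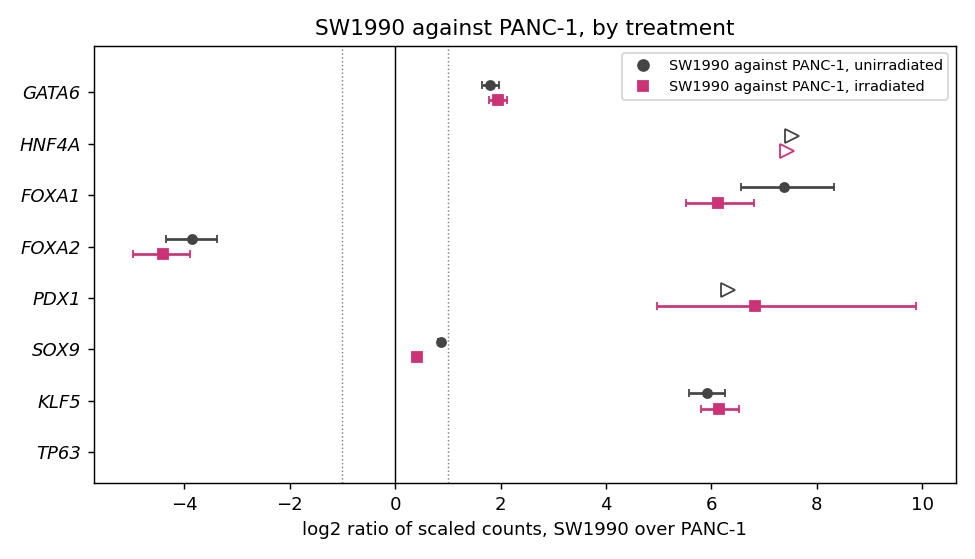
Log2 ratio of scaled counts, SW1990 over PANC-1, for each factor without radiation (circles) and with radiation (squares); bars are exact 95% intervals of the counts, open triangles are lower bounds against a count of 0, dotted lines mark 2-fold, and TP63 has no ratio. FOXA2 lies to the left of 0 at both treatments, at -3.85 and -4.41, and the other factors shown lie to the right.

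Some of the reads of these factors could come from overlapping genes, since the sources used here do not state whether the counting used strand. SOX9-AS1 on the opposite strand had 124, 117, 41 and 46 counts (in the order SW1990 Ctrl, SW1990 Rad, PANC-1 Ctrl, PANC-1 Rad), TTC6 over FOXA1 on the opposite strand 79, 90, 5 and 0, and PLUT over PDX1 on the opposite strand 4, 0, 0 and 0. AL121722.1, on the same strand as FOXA2, had 0, 0, 2 and 50, and MIR3646, within HNF4A on the same strand, had 3, 4, 0 and 0. In each case the factor itself had more counts than its partner in the line where it was expressed. KLF5 overlaps no other gene of the table. In bulk RNA, fewer cells that express a factor and less of its RNA per cell cannot be told apart.

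The second comparison of the design asks what 10 Gy did to these factors within each line. A gene was called when the edgeR exact test on the reads of the 2 libraries, at a dispersion of 0, gave an adjusted p under 0.001 and the fold was above 2. This test compares the libraries, not the conditions, and the differences have no replicate check. By this rule 650 of 15731 genes (4.13%) were called in SW1990, 355 (2.26%) higher and 295 (1.88%) lower in the irradiated library. In PANC-1, 712 of 15159 (4.7%) were called, 360 (2.37%) higher and 352 (2.32%) lower. None of the factors was among them, with 6 tested in SW1990 and 3 in PANC-1 (0 called in each), the others being under 1 FPKM in both libraries. By the adjusted p alone, at any fold, SOX9, FOXA1 and KLF5 passed in SW1990, beside 26.2% of all genes, and SOX9 passed in PANC-1, beside 34.6%. KLF5 did not pass with total counts (adjusted p = 0.0136, edgeR exact test) or without the limit of 1 FPKM (0.00104, edgeR exact test). FOXA2 in PANC-1 did pass with total counts (0.000452, edgeR exact test). Where cultures were assumed to vary with a coefficient of 0.2, none of these factors passed.

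SOX9 had the lowest ratio among the tested factors in both lines. It was 1.78-fold lower in SW1990 Rad than in SW1990 Ctrl (log2 -0.83, 95% interval -0.88 to -0.78) and 1.27-fold lower in PANC-1 Rad than in PANC-1 Ctrl (log2 -0.34, -0.40 to -0.28). Both intervals lie below 0 and above -1, so that counting error alone does not take either to 2-fold. Where cultures were assumed to vary with a coefficient of 0.2, the adjusted p of SOX9 in SW1990 was 0.731 (edgeR). With both lines in 1 fit and line as a covariate, SOX9 was at log2 -0.57 ± 0.17 (SE; adjusted p = 0.942, edgeR's quasi-likelihood test). In that fit 0 of 18180 genes (0%) were called, 877 (4.82%) had an unadjusted p under 0.05, and DESeq2 called 38, none of them among the 8.

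In SW1990, FOXA1 was 1.20-fold lower with radiation (log2 -0.27, -0.37 to -0.17) and KLF5 was higher by 0.12 on the log2 scale (0.06 to 0.18). GATA6 was at 0.07 (-0.05 to 0.18), HNF4A at 0.00 (-0.18 to 0.18) and PDX1 at 0.04 (-0.24 to 0.32). The last 3 intervals include 0 and stay between -0.24 and 0.32. FOXA2, under 1 FPKM, went from 40 to 31 counts.

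In PANC-1, FOXA2 was higher by 0.21 on the log2 scale (0.06 to 0.37) and GATA6 was at -0.05 (-0.26 to 0.16). FOXA1 went from 12 to 22 counts (2.01-fold, log2 interval -0.07 to 2.15) and KLF5 from 77 to 66 (-0.09, -0.59 to 0.40), both under 1 FPKM and not tested. HNF4A, PDX1 and TP63 had at most 2 counts and no ratio. With 4 libraries an interaction of line and radiation leaves no residual degree of freedom, so whether the response of any factor differs between the lines was not tested.

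**Figure D3:**
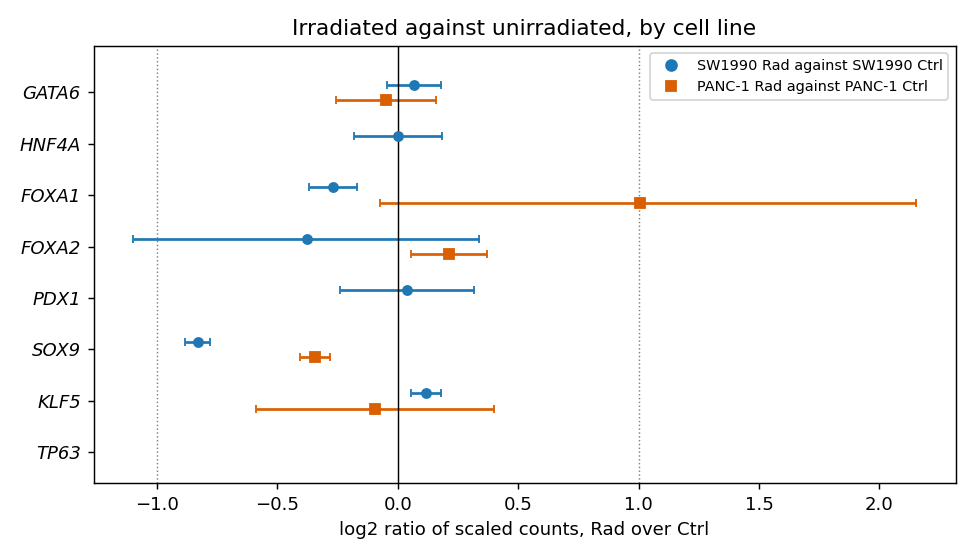
Log2 ratio of scaled counts, irradiated over unirradiated, for each factor in SW1990 (circles) and PANC-1 (squares), with exact 95% intervals of the counts; dotted lines mark 2-fold, and no point is drawn where both libraries had at most 3 counts. SOX9 lies at -0.83 in SW1990 and -0.34 in PANC-1, and the wide bars of FOXA1 in PANC-1 and FOXA2 in SW1990 rest on 12 to 40 counts a library.

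The other genes were read from lists, and members with no counts in 1 line could enter the line comparison through the other line alone and then had to differ. Counts of calls over the tested members are thus a description. The lists also share members, so calls in different lists are not separate observations. GATA4, FOXA3 and HNF4G are among both the endoderm factors and the paralogs, and KLF4 is among both the epithelial factors and the paralogs. CDH17 is in both the HNF4A-dependent and the classical list. A fitted difference against 0 counts is no bound, so each median is also given with libraries of 3 counts or fewer set to 3.

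Of 28 other transcription factors of endoderm and pancreas, 9 were at 0 in all 4 libraries and 18 were tested between the lines, 11 of them past the filter in SW1990 alone and 1 in PANC-1 alone. Of the 18, 12 were called higher and 1 lower in SW1990, beside 21.8% and 22.9% of all genes tested. The median log2 difference was 4.44, and 2.77 with the limit of 3 counts, beside -0.01 over all genes. CDX2, the intestinal homeobox factor, had 3732 and 3045 counts in the SW1990 libraries (43.6 and 35.0 FPKM) and 4 and 10 in the PANC-1 libraries. BHLHA15, a helix-loop-helix factor of secretory cells, had 33 and 41 counts in SW1990 and 0 in both PANC-1 libraries. GATA4, the close relative of GATA6, was the 1 factor called higher in PANC-1, with 0 and 9 counts in SW1990 and 357 and 288 in PANC-1. After radiation 0 of the 10 tested in SW1990 and 0 of the 4 tested in PANC-1 were called, beside 4.13% and 4.7% of all genes.

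Among 16 paralogs of the 8 factors, 13 were tested between the lines, 2 of them past the filter in SW1990 alone and 1 in PANC-1 alone, with 6 called higher and 5 lower in SW1990, beside 21.8% and 22.9% of all genes, and a median of 0.11 with or without the limit. GATA3 (7 and 12 counts in SW1990, 303 and 156 in PANC-1) and GATA4 were lower in SW1990, whereas FOXA3 (220 and 218 against 0 and 10) and HNF4G (101 and 91 against 2 and 8) were higher. Within the GATA family GATA6 and GATA2 (966 and 1153 counts against 279 and 526) were higher in SW1990, while GATA3 and GATA4 were higher in PANC-1. TP73, a relative of TP63, had 535 and 831 counts in SW1990 and 79 and 144 in PANC-1 and overlaps TP73-AS1 and WRAP73 on the opposite strand. The only paralog called after radiation was GATA2, 1 of 10 tested in PANC-1 beside 2.37% of all genes called higher. It rose from 279 to 526 counts (log2 1.05) and overlaps GATA2-AS1 on the opposite strand.

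Of 12 factors of the epithelial state, all tested and 6 past the filter in SW1990 alone, 7 were called higher and 1 (TFAP2A) lower in SW1990, beside 21.8% and 22.9% of all genes. The other 4 were not called, among them KLF4 at a log2 difference of -1.0, and the median was 3.69, or 3.70 with the limit of 3 counts. GRHL2, which maintains epithelial junction genes, had 1803 and 1910 counts in SW1990 and 0 in both PANC-1 libraries, and the ETS factor EHF had 2152 and 1508 against 0 and 0. Of 8 factors of the mesenchymal state, TWIST1 was at 0 in all libraries and 7 were tested, 4 of them past the filter in PANC-1 alone and 1 in SW1990 alone. None was called higher and 6 were called lower in SW1990, and PRRX1 (35 and 10 counts against 2 and 6) was not called. Their median was -4.93 with the limit of 3 counts and -8.21 as fitted. FOXC2 had 0 counts in both SW1990 libraries and 634 and 546 in PANC-1, and ZEB2, a repressor of epithelial genes, had 2 and 0 against 463 and 362.

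After radiation ZEB1, the relative of ZEB2, rose in SW1990 from 14 to 66 counts (log2 2.23), which left it far below the 1394 and 1084 counts of PANC-1 Ctrl and PANC-1 Rad. It was 1 of 2 mesenchymal factors tested in SW1990 and entered the test through the irradiated library alone (0.314 and 1.34 FPKM), beside 2.26% of all genes called higher. In PANC-1 the epithelial factors ELF3 (71 to 145 counts, log2 1.16) and GRHL3 (73 to 144 counts, log2 1.11) were called higher by counts, 2 of the 6 tested, beside 2.37% of all genes. By FPKM, however, ELF3 was at 2.23 and 2.39, a ratio of 1.07, which ends its call, and GRHL3 was at 1.31 and 2.66. GRHL3 overlaps STPG1 on the opposite strand, which had 340 and 194 counts. None of the 11 epithelial factors tested in SW1990 and none of the 5 mesenchymal factors tested in PANC-1 was called, beside 4.13% and 4.7% of all genes.

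**Figure D4:**
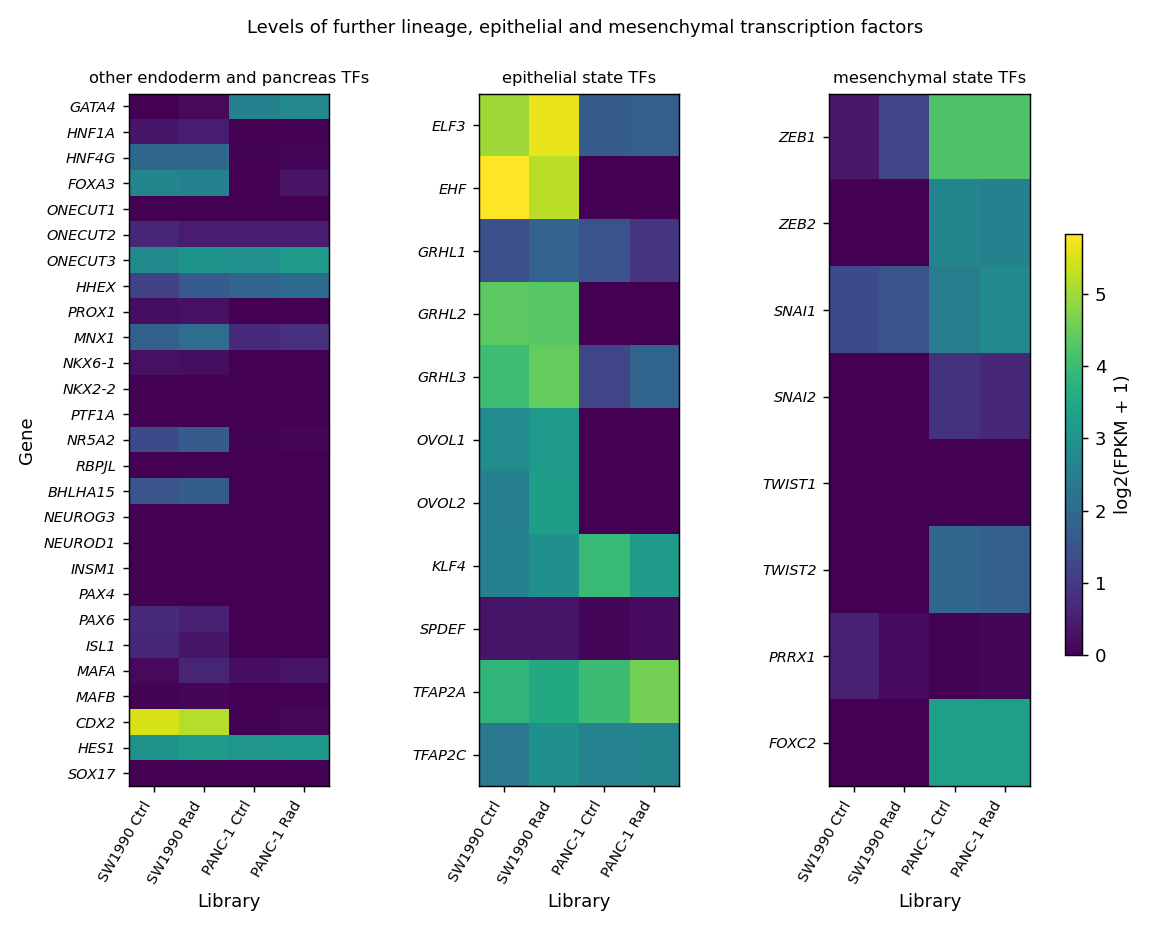
Level, as log2(FPKM + 1), of 27 other endoderm and pancreas factors, 11 epithelial factors and 8 mesenchymal factors in the 4 libraries; each row is a gene and each column a library, with brighter colour for a higher level. CDX2, EHF and GRHL2 are bright in the SW1990 columns and dark in the PANC-1 columns, and ZEB1 and FOXC2 show the reverse.

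Genes known to depend on HNF4A in gut and liver were read from a list of 18. Of these, 9 were at 0 in all libraries and 6 were tested between the lines, 3 of them past the filter in SW1990 alone. Of the 6, 5 were called higher and 0 lower in SW1990, beside 21.8% and 22.9% of all genes, with a median log2 difference of 6.34, or 5.02 with the limit of 3 counts. CDH17, an intestinal cadherin, had 2856 and 2988 counts in SW1990 and 10 and 20 in PANC-1, and VIL1, the microvillus protein villin, had 3852 and 3434 against 5 and 4, with USP37 overlapping on the opposite strand. The liver serpin SERPINA1 had 166 and 211 against 4 and 9. After radiation none of the 6 tested in SW1990 and of the 1 tested in PANC-1 was called, beside 4.13% and 4.7% of all genes.

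Of 24 genes of classical tumours 10 were tested between the lines, 5 of them past the filter in SW1990 alone, and 7 were called higher and 1 (AGR2) lower in SW1990. Of 25 genes of basal-like tumours 15 were tested, 6 of them past the filter in SW1990 alone and 1 in PANC-1 alone, and 9 were called higher and 2 lower. Over all genes 21.8% were called higher and 22.9% lower. The medians were 5.04 and 3.19, or 3.88 and 2.85 with the limit of 3 counts. Among classical genes KRT20, an intestinal keratin, had 742 and 1282 counts in SW1990 and 2 and 0 in PANC-1. Among basal-like genes the noncoding RNA UCA1 had 1268 and 1259 against 0 and 2, and the dehydrogenase DHRS9 had 0 and 0 against 297 and 252. Of 16 squamous genes downstream of p63, 8 were tested, 2 of them past the filter in SW1990 alone, with 5 called higher and 0 lower in SW1990 and a median of 1.81, or 1.83 with the limit. TRIM29 had 356 and 830 counts against 2 and 0, while the basal keratin KRT14 was at 0 in all libraries and KRT5 had 0, 6, 0 and 2 counts.

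After radiation, of 14 tested basal-like genes, 4 were called higher in SW1990 and 0 lower, and of 7 squamous and 11 classical genes 2 and 1 were called higher, beside 2.26% of all genes called higher and 1.88% lower. Of the 4 VGLL1 (0 to 49 counts), LY6D (2 to 37) and the cornified-envelope gene SCEL (37 to 167, log2 2.17) reached 1 FPKM in the irradiated library alone and so had to be higher there, and 11 of the 14 had passed in the unirradiated library. The keratin KRT15 went from 104 to 246 counts (log2 1.24), but by FPKM from 2.24 to 3.87, which is under 2-fold and ends its call. Of the squamous genes, SERPINB5 (44 to 171, log2 1.95) entered through the irradiated library alone, and TRIM29 (356 to 830, log2 1.21) was at 11.4 and 22.8 FPKM, a ratio of 1.99 that also ends its call. TP63 had 0 counts in both libraries. Of the classical genes CTSE (11 to 54, log2 2.29) was called and likewise entered through the irradiated library alone. In PANC-1, TNS4 rose (276 to 507, log2 1.01) and AREG, an EGF receptor ligand, fell by 1.22 on the log2 scale, out of 9 tested basal-like genes, beside 2.37% of all genes called higher and 2.32% lower.

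Of 5 noncoding neighbours with a row among the genes, 2 were tested between the lines. SOX9-AS1 was called higher in SW1990, beside 21.8% of all genes (log2 1.57 ± 0.36, SE; adjusted p = 0.0202, edgeR's quasi-likelihood test). GATA6-AS1 had 42, 30, 7 and 21 counts in SW1990 Ctrl, SW1990 Rad, PANC-1 Ctrl and PANC-1 Rad and was not called (edgeR's adjusted p = 0.137). LINC00261, beside FOXA2, had 4, 0, 16 and 4 counts.

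Markers checked the labelled cell type. Of the keratins of duct epithelium, KRT8 and KRT19 were abundant in both lines. KRT8 had 38674 and 53301 counts in SW1990 and 28483 and 27779 in PANC-1, and KRT19 had 6367 and 8933 against 5490 and 7817. KRT8 overlaps a gene on the opposite strand that also had high counts in every library. The duct keratin KRT7 was far lower, with 99 and 102 counts against 145 and 97 (5.02 to 6.36 FPKM). SPP1, AQP1 and AMBP of the duct list had at most 8 counts in a library. EPCAM, an epithelial adhesion molecule, had 7348 and 7552 against 108 and 113, and the duct chloride channel CFTR 304 and 288 against 0 and 0. CFTR overlaps CTTNBP2 on the opposite strand, which had 119 and 89 counts against 0 and 0. Of 13 duct markers 10 were tested between the lines, 3 of them past the filter in SW1990 alone, with 6 called higher and 2 lower in SW1990, beside 21.8% and 22.9% of all genes. The 2 lower ones were MUC1, a mucin (56 and 85 counts against 313 and 462), and ANXA4, which overlaps AAK1 on the opposite strand (651 and 801 against 1988 and 1887).

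Markers of other cell types differed between the lines as well. The 14 acinar markers summed to 62, 52, 4 and 23 counts (SW1990 Ctrl, SW1990 Rad, PANC-1 Ctrl, PANC-1 Rad; 7 at 0 in all, REG1A the most abundant), and the 10 endocrine markers to 13, 0, 82 and 40 (CHGB the most abundant, with INS, GCG, SST and PPY at 0). The 8 fibroblast markers summed to 342, 446, 1047 and 1395 (COL1A1 the most abundant, DCN at 0), but of the 4 tested between the lines 2 were called lower in SW1990 (COL1A1 and COL3A1) and 2 higher (ACTA2, 110 and 218 counts against 0 and 0, and PDGFRB, 129 and 63 against 0 and 3), beside 22.9% and 21.8% of all genes. Of these 4, 2 passed the filter in SW1990 alone and 1 in PANC-1 alone. On the opposite strand ACTA2 overlaps FAS (234, 380, 7 and 9 counts), ACTA2-AS1 (103, 96, 48 and 91) and STAMBPL1 (1011, 944, 738 and 702). The 4 immune markers summed to 31, 39, 967 and 583, most of it CD68, with CD3E at 0. CD68 overlaps AC016876.2 on the same strand (422, 297, 1941 and 1739 counts). The 4 endothelial markers summed to 22, 52, 1001 and 750, most of it KDR. Of the 2 tested between the lines, VWF (14 and 50 against 2 and 4) was called higher in SW1990, beside 21.8% of all genes. KDR (0 and 0 against 999 and 746) was called lower, beside 22.9%. VWF passed the filter in SW1990 alone and KDR in PANC-1 alone, so both had to differ. After radiation PDGFRB, 1 of 3 fibroblast markers tested, was called lower in SW1990 (log2 -1.04, but 1.56 and 1.03 FPKM, which ends the call), beside 1.88% of all genes. CHGB, the 1 endocrine marker tested, was called lower in PANC-1 (log2 -1.11), beside 2.32%. CHGB reached 1 FPKM in the unirradiated library alone (1.075 and 0.512 FPKM) and so had to be lower in the irradiated one. These sums and the 8 factors differ between the same lines, and their part in the differences was not tested.

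Genes with profiles over the 4 libraries close to those of the factors were found by the Euclidean distance of centred log2(CPM + 0.5), with counts scaled to the library total and 0.5 added, among 11412 genes with at least 5 FPKM in a library. The closest was GALNT6 to GATA6 (distance 0.06), ATP2C2 to HNF4A (0.05), ANKRD20A5P to FOXA2 (0.08), RIC8B to SOX9 (0.05) and VIPR1 to KLF5 (0.08). The added 0.5 CPM caps the ratios of genes with few counts: VIPR1 had 8 and 7 counts in PANC-1 and KLF5 77 and 66, so a small distance between such genes is no sign of equal ratios. For PDX1 the closest was HOXA11 (0.06). All these distances rest on the same 4 libraries of 2 lines.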

How the data were processed

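The authors sequenced 4 libraries, 1 per line and treatment. The submitters' processing notes name CASAVA 1.8, FastQC 0.11.2, Trimmomatic 0.36, HISAT2 2.0, StringTie 1.3.3b, DESeq2 1.12.4 and GRCh38. The deposited table holds, per gene and library, a read count, which is not normalized, and an FPKM value, which the authors scaled to transcript length and mapped fragments. How the counts were made is not given in the sources used here. Of 59263 rows, 1089 name no gene and entered neither library sizes nor tests (0.453% to 0.635% of the counts of a library). Of the 58174 others, 57836 were found in GENCODE 29, 96.8% at the same position. Columns of other samples were not present.

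Counts were scaled by TMM and tested with edgeR 4.0.16 in R 4.3.3. Within a line, genes with at least 1 FPKM in 1 or both libraries were tested with the exact test at dispersion 0, called at an adjusted p under 0.001 and a fold above 2. For all 4 libraries, genes kept by filterByExpr were tested with the quasi-likelihood test and terms for line and treatment, called at an adjusted p under 0.05. SE is the log2 difference divided by the root of F. DESeq2 1.42.0 and limma 3.58.1 served in alternatives. The scripts were tested on simulated data. Where a library had 0 counts, the bound uses 3 counts in that library, and no ratio is given where both had at most 3.

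The 8 factors and the gene lists were chosen with earlier results of these data known. Named genes are the 8 factors, up to 4 per list with the largest called difference between the lines, up to 4 per list called after radiation, and the most abundant gene of each marker list. Other genes were named after their values were seen. Values of some list members are not reported here.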

Additional observations from a re-analysis of the deposited data

Results flagged for a closer look

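In 3 genes of the lists the ratio of irradiated to unirradiated library was higher than 1 in SW1990 and lower than 1 in PANC-1, with exact intervals of the counts on opposite sides of 0. In each line the value comes from 1 pair of libraries, and the difference between the lines was not tested. KLF4, an epithelial relative of KLF5, was at log2 0.48 in SW1990 and -0.76 in PANC-1. ZEB1 was at 2.23 in SW1990, from 14 to 66 counts, and at -0.23 in PANC-1, where its FPKM was 17.39 and 17.37, so that the lower ratio in PANC-1 is not seen by FPKM. SLC2A1, the glucose transporter of the basal-like list, was at 0.39 and -0.31.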

How the results depend on the processing

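With 1 library per group, the counting intervals hold no spread between cultures. Radiation over both lines was fitted with line as a covariate, which pairs Ctrl with Rad within each line. Apart from that, no paired analysis was possible because each group holds 1 library and the labels' replicate numbers form no further block. The count of genes called after radiation depends on the call rule. In SW1990 it was 650, and 1456 with a fold above 1.5, 335 with folds from FPKM and a pseudocount of 1, and 99 and 15 where cultures were assumed to vary with a coefficient of 0.2 and 0.4. In PANC-1 it was 712, and 1776, 343, 103 and 10 in the same order. With a fold above 1.5, SOX9 was called in SW1990, 1 of the 6 factors tested there, beside 1456 of 15731 genes. In PANC-1, 360 genes were called higher and 352 lower (50.6% higher), and with total counts 456 and 283 (61.7% higher). DESeq2 called 38 genes for radiation over both lines. Fits of 3 libraries without a line term, added after seeing the data, called 0 genes for radiation in each case, and line and treatment are unbalanced in them.

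The line comparison called 5502 to 8823 genes over 11 alternatives, 5502 to 6260 when 1 library was left out together with the treatment term, with 6 to 7 of the 8 factors. The call of SOX9 was lost without the count filter (edgeR's adjusted p = 0.0719) and with line as the only term (0.101), also in 3 of the 4 fits that left out a library, and its adjusted p ran from 0.00753 to 0.486 over the alternatives. Total counts moved the median of all genes between the lines to 0.15 on the log2 scale, and FPKM values to 0.12 and 0.16. Of the genes called between the lines, 3965 were higher and 4159 lower in SW1990, against 4530 and 3440 with total counts and 5049 and 3774 with limma on log2(FPKM + 1). Of 184 single-gene alternatives, 170 kept direction and side of the threshold and 8 changed sign, all of them radiation values that were not called. HNF4A in SW1990 was at -0.028 with total counts, and over both lines at -0.027. GATA6 in PANC-1 was at 0.041 with total counts and at 0.083 and 0.066 with FPKM and a pseudocount of 0.01 and 1. Over both lines FOXA2 was at 0.019 with total counts and 0.18 without the line term, and FOXA1 at -0.23 without the line term. The cause was not tested.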
